A study of Caenorhabditis elegans with 60 samples.

Results

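The 6 vitellogenin genes of Caenorhabditis elegans, vit-1 to vit-6, were taken by name and identifier (WBGene00006925 to WBGene00006930) from the 31106 genes counted in each library. Vitellogenins are yolk proteins. In hermaphrodites they are made in the intestine once the animals become adult, are secreted into the body cavity and enter growing oocytes by endocytosis through the receptor RME-2, where they feed the embryo. The genes are among the most abundantly transcribed of the adult intestine and are nearly silent in larvae, so that their mRNA is widely used as a sign of the passage from larva to adult.

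The libraries come from a study of CSR-1, an Argonaute protein that binds short antisense siRNAs and exists as a long isoform, CSR-1A, and a short one, CSR-1B, which differ only in an N-terminal exon of CSR-1A. All were made from whole worms grown at 20 °C and collected as L4 larvae, 48 h after hatching, or as adults, at 68 h. Of 59 libraries analysed, 9 hold mRNA and 50 hold small RNA. The mRNA libraries are L4 only, 3 each from wild-type (N2), csr-1a(cmp135) (strain USC1065) and csr-1a(cmp143) (USC1074) animals; cmp135 deletes the start of the csr-1a coding sequence, start codon included, and cmp143 deletes part of the csr-1a promoter as well. The small RNA libraries are immunoprecipitates (IPs) of a tagged Argonaute and the inputs of the same lysates, plus total small RNA of wild-type L4 animals. At L4, anti-HA IPs were made from 3 strains: CSR-1A, with the tag allele cmp165[2xHA::csr-1a], CSR-1A alg-3/4, with the tag allele cmp237[2xHA::csr-1a] and the mutations alg-4(ok1041) and alg-3(tm1155) in a pair of Argonautes of spermatogenesis, and CSR-1A[15xAG], where cmp165[2xHA::csr-1a] is joined by cmp208[15xAG], which alters arginine-glycine motifs. Anti-FLAG IPs were made at L4 and in adults from CSR-1B, which joins the deletion cmp135 to the tag allele cmp167[2xFLAG::csr-1] and so tags the short isoform alone, and from CSR-1A+B, whose allele cmp166[2xFLAG::csr-1] tags both isoforms. At L4 they were also made from WAGO-1 animals, with a GFP::3xFLAG tag on wago-1 (cmp92) and an mCherry tag on mut-16 (cmp41). Untagged wild-type L4 animals passed through the anti-HA and anti-FLAG procedures served as controls. Each group has 2 or 3 libraries, and nothing in the labels says that replicates of different strains were grown side by side, so p-values measure the spread between these libraries. Every tagged strain is a line made by genome editing, adult libraries exist only for CSR-1B and CSR-1A+B, and no mRNA was sequenced from adults.

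Depth was 16729691 to 21093818 counts on genes in the mRNA libraries and 570862 to 17342341 in the small RNA libraries (median 5874917). The shallowest by far was CSR-1B L4 IP replicate 1. Ribosomal RNA genes took 1.11% to 61.6% of small RNA counts. csr-1 itself, the targeted gene, had 131 to 141 mRNA counts per 1000000 counts on genes (CPM) in wild-type, 53.8 to 68.0 CPM in csr-1a(cmp135) and 44 to 56.2 CPM in csr-1a(cmp143), with both isoforms counted together. Markers of the intestine, where vitellogenins are made, were present in every mRNA library, with 14 genes summing to between 12626 and 20284 CPM.

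Of the genes, 5 lie on the X chromosome and 1 on chromosome IV (genome WBcel235, positions of the files' own annotation). vit-1 spans 7727889 to 7733168 and vit-2 spans 5101032 to 5106173, both on the plus strand. On the minus strand vit-3 (3567355 to 3572549) and vit-4 (3558839 to 3563974) are neighbours, and vit-5 (3403471 to 3408603, plus strand) lies nearby. vit-6 is on chromosome IV, 8261134 to 8266462, plus strand. All are protein-coding, with 4870 to 5090 bases in 5 or 6 exon blocks. The family holds a pair of close copies, a trio and a lone member. Exons of vit-1 and vit-2 were 93.6% identical over aligned bases, those of vit-3 and vit-4 98.9%, of vit-3 and vit-5 97.5% and of vit-4 and vit-5 97.6%, while vit-6 reached at most 66.3% with any other member. This limits what the counts can tell apart. A stretch of 22 bases, about the length of an siRNA, recurred exactly in another member at 86.9% of positions in vit-3, 89.9% in vit-4 and 71.3% in vit-5, at 34.2% in vit-1 and 35.3% in vit-2, and at 0.1% in vit-6. For stretches of 150 bases, nearer to an mRNA fragment, the shares were 57.8%, 62.3% and 16.3% in vit-3, vit-4 and vit-5, 0.53% in vit-1, 0.55% in vit-2 and 0 in vit-6. No such stretch of a member was found outside the family. Small RNA values of vit-3, vit-4 and vit-5 are therefore largely one shared value, mRNA values of vit-3 and vit-4 miss the fragments that map to several places, and vit-6 is the member whose reads are its own.

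The genes share short elements in front of their starts, known from work on vit-2 as vitellogenin promoter elements: VPE1, with the letters TGTCAAT, and VPE2, whose letters are CTGATAA and which is of the type that intestinal GATA factors bind. Windows of 250 bases before the start that the files give are shown for 4 members, chosen because vit-1 stood apart in mRNA, vit-2 is its closest relative, vit-5 had the largest ratio and vit-6 is the divergent gene. Each is written 5′ to 3′ on the gene's strand (WBcel235, X:7727639-7727888, X:5100782-5101031, X:3403221-3403470 and IV:8260884-8261133, all plus strand), with the elements on either strand in capitals.
vit-1: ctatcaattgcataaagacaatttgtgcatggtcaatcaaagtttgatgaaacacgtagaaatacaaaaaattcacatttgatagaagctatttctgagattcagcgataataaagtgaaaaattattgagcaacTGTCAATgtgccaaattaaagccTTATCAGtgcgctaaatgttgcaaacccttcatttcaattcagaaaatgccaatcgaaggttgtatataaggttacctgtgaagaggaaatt
vit-2: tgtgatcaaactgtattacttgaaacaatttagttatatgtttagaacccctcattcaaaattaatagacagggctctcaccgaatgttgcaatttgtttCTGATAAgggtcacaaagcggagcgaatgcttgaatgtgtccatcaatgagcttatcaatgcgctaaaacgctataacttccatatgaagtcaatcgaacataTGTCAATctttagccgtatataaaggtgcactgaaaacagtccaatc
vit-5: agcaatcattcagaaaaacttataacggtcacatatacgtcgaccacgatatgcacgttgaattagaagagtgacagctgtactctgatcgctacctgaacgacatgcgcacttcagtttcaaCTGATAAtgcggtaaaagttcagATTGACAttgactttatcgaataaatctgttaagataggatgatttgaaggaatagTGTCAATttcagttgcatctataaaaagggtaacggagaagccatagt
vit-6: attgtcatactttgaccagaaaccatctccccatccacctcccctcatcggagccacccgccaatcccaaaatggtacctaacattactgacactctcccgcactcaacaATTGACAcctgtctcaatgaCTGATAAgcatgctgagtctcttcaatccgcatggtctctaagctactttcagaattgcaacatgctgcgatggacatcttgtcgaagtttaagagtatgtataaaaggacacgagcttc
VPE1 was present in 6 of 6 windows and VPE2 in 5 of 6, vit-3 being without an exact match. Over the same windows of 19699 protein-coding genes, VPE1 was found in 4.89%, VPE2 in 7.1% and both in 0.38%. In vit-2, vit-3, vit-4 and vit-5 a VPE1 match began 47 to 50 bases before the start. That of vit-1 began 115 bases before, and the only one in vit-6 began 140 bases before and lay on the other strand. These matches are letters in a window; binding was not measured.

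The mRNA libraries show what removal of csr-1a went with at L4. In wild-type L4 animals vitellogenin mRNA was low but not absent, and it was carried by vit-6, vit-2 and vit-1. In both csr-1a strains 5 members, vit-2 to vit-6, were higher by 4.00 to 9.44 on the log2 scale of the fits, whereas the vit-1 ranges of wild-type and csr-1a(cmp135) overlapped. The 6 genes together summed to 152 to 250 CPM in the 3 wild-type libraries, 2931 to 4495 CPM in csr-1a(cmp135) and 1834 to 4989 CPM in csr-1a(cmp143).

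**Figure D1:**
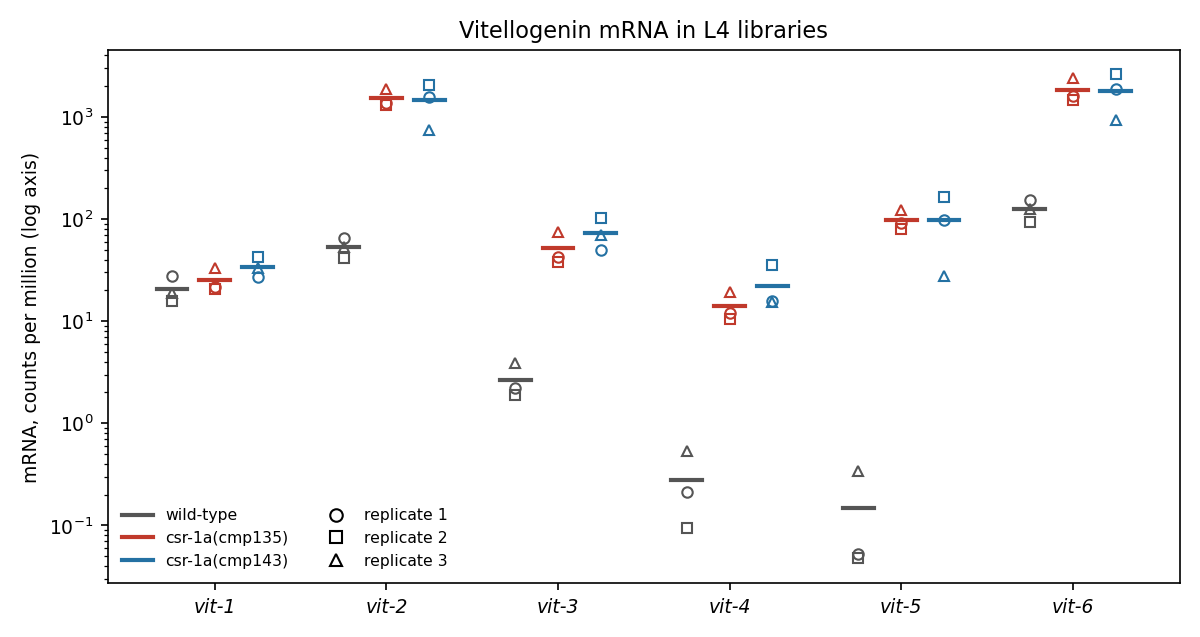
Vitellogenin mRNA in each L4 library as CPM on a log axis, with strains in colour, replicates as symbols and bars at group means (3 libraries each). vit-2 to vit-6 separate both csr-1a strains from wild-type, whereas the vit-1 points lie between 15.7 and 42.5 CPM in all 9 libraries.

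vit-6, the divergent yolk gene, had 154, 93.0 and 125 CPM in wild-type replicates 1 to 3. It had 1607, 1470 and 2376 CPM in csr-1a(cmp135) and 1861, 2602 and 941 CPM in csr-1a(cmp143). Every csr-1a library was far above the highest wild-type one, without overlap. The log2 fold change was 4.00 ± 0.37 (SE) for cmp135 and 4.02 ± 0.37 for cmp143, n = 3 libraries per strain.

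vit-2, a source of the large yolk polypeptide, had 65.4, 41.6 and 53.5 CPM in wild-type. In csr-1a(cmp135) it had 1373, 1312 and 1869 CPM, and in csr-1a(cmp143) 1579, 2044 and 746 CPM. Again no csr-1a library came near a wild-type one. edgeR's quasi-likelihood test gave a log2 fold change of 4.95 ± 0.37 (Benjamini-Hochberg adjusted p = 1.1e-05) for cmp135 and 4.93 ± 0.37 for cmp143.

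vit-1 behaved otherwise, although its exons are nearly those of vit-2. Wild-type libraries held 27.6, 15.7 and 18.9 CPM, csr-1a(cmp135) 21.6, 20.7 and 32.8 CPM, and csr-1a(cmp143) 27, 42.5 and 33.1 CPM. The wild-type and cmp135 ranges overlapped, and the difference of 0.40 ± 0.24 on the log2 scale did not pass the test (adjusted p = 0.22). In cmp143 the difference was 0.87 ± 0.24 (adjusted p = 0.019), a call that was lost on leaving out wild-type replicate 2, wild-type replicate 3 or cmp143 replicate 2 (adjusted p up to 0.077). The mRNA ratio of vit-2 to vit-1 therefore went from 2.37 to 2.83 in wild-type libraries to 57.0 to 63.5 in csr-1a(cmp135) and 22.5 to 58.5 in csr-1a(cmp143).

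The trio started from near nothing. vit-3 had 2.21, 1.90 and 3.85 CPM in wild-type, 42.7, 38.3 and 74.1 CPM in csr-1a(cmp135) and 49.7, 101 and 70.0 CPM in csr-1a(cmp143), with log2 fold changes of 4.40 ± 0.38 and 4.94 ± 0.39. For vit-4 the wild-type libraries held 4, 2 and 11 counts, against 12.1, 10.4 and 19.4 CPM in csr-1a(cmp135) and 15.6, 35.6 and 15.2 CPM in csr-1a(cmp143). vit-5 had 1, 1 and 7 counts in wild-type, 91.3, 80.3 and 122 CPM in csr-1a(cmp135) and 98.0, 164 and 27.8 CPM in csr-1a(cmp143). All 6 csr-1a libraries were above the 3 wild-type ones for each of these genes. With so few wild-type counts the size is loosely fixed: pooled over libraries the vit-4 ratio was 49.7 (95% exact interval 30.8 to 85.8) for cmp135 and 78.6 (48.9 to 135) for cmp143, and that of vit-5 was 659 (347 to 1442) and 635 (334 to 1390), intervals that cover counting error only.

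In all, 5 of 6 members were called higher in csr-1a(cmp135), where 18.0% of all 14419 genes tested were called higher, and 6 of 6 in csr-1a(cmp143), against 15.5% of genes. The median log2 fold change of the members was 4.68 and 4.93, beside -0.01 and -0.02 over all genes. The wild-type libraries are shared by both comparisons. The difference between the alleles was tested directly: 0 of 6 members, and 0% of all genes, were called by edgeR, with 0 members at an unadjusted p under 0.05 and 0 by DESeq2. The differences between the alleles ranged from -0.03 ± 0.31 for vit-2 to 0.69 ± 0.36 for vit-4. Within csr-1a(cmp143), replicate 3 was the lowest for vit-2, vit-5 and vit-6, and the 6 calls against wild-type held without it.

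Per length, in TPM (counts per base of exon, scaled to sum to 1000000), the order of mRNA levels in wild-type was vit-6 (19 to 32.7 TPM), vit-2 (8.75 to 14.3 TPM), vit-1 (3.21 to 5.86 TPM), vit-3 (0.40 to 0.81 TPM) and then vit-4 and vit-5, at or below 0.11 TPM and not separated from each other. In csr-1a(cmp135) the order was vit-6 (294 to 499 TPM) and vit-2 (270 to 404 TPM), whose ranges overlapped, then vit-5 (16.8 to 26.9 TPM), vit-3 (7.93 to 16.1 TPM), vit-1 (4.14 to 6.89 TPM) and vit-4 (2.18 to 4.27 TPM), the last 2 overlapping slightly. TPM was not corrected for reads lost to shared sequence. Such sequence took 57.8% of 150-base stretches in vit-3, 62.3% in vit-4 and 16.3% in vit-5. The order of vit-5 against vit-3 and of vit-1 against vit-4 is therefore not settled. Among all genes ranked per length, vit-6 went from place 3064 to 4396 in wild-type to place 323 to 714 in the 6 csr-1a libraries, and vit-2 from 5597 to 7171 to 377 to 851.

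Other genes that mark stage and tissue differed between the same libraries. Of 12 genes of the molting cycle, 9 were lower and 2 higher in each csr-1a strain, and the list summed to 3774 to 5332 CPM in wild-type, 781 to 1064 CPM in csr-1a(cmp135) and 1133 to 1912 CPM in csr-1a(cmp143). The most abundant were mlt-11, a protease inhibitor of the molt, with log2 fold changes of -3.58 ± 0.42 and -2.24 ± 0.39, and qua-1, a hedgehog-related protein, with -2.21 ± 0.21 and -1.49 ± 0.20. Of 5 adult cuticle genes, 3 were higher and 2 lower in each csr-1a strain, and the list sum was not higher (1223 to 1520 CPM in wild-type, 1199 to 1353 CPM in csr-1a(cmp135) and 851 to 1183 CPM in csr-1a(cmp143)). bli-2, the most abundant of them, fell by 1.13 ± 0.17 and 0.88 ± 0.17 on the log2 scale. The collagen gene col-19, which is turned on in adults, had 1.31, 2.04 and 4.58 CPM in wild-type, 760, 598 and 596 CPM in csr-1a(cmp135) and 509, 545 and 125 CPM in csr-1a(cmp143), where replicate 3 was again the lowest. Of 15 oocyte genes, 15 were higher in csr-1a(cmp135) and 11 in csr-1a(cmp143), among them cpg-2 and cbd-1, which build the eggshell. Of 14 intestine genes 8 and 9 were higher and 0 lower, with a median log2 fold change of 0.71 and 0.68. The most abundant, the protease gene asp-1, was higher by 0.71 ± 0.11 and 0.87 ± 0.11, the actin gene act-5 did not pass the test (-0.14 ± 0.11 and -0.07 ± 0.11), and the list summed to 12626 to 14364 CPM in wild-type and 17274 to 18140 CPM in csr-1a(cmp135). Of 80 sperm genes tested, 1 was higher and 4 lower in csr-1a(cmp135) and 18 were lower in csr-1a(cmp143). The 10 genes of the early embryo summed to at most 0.76 CPM in any library, with 4 or 5 of the 10 at 0 in every library of a strain. Genotype and developmental stage at harvest cannot be told apart in these libraries.

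**Figure D2:**
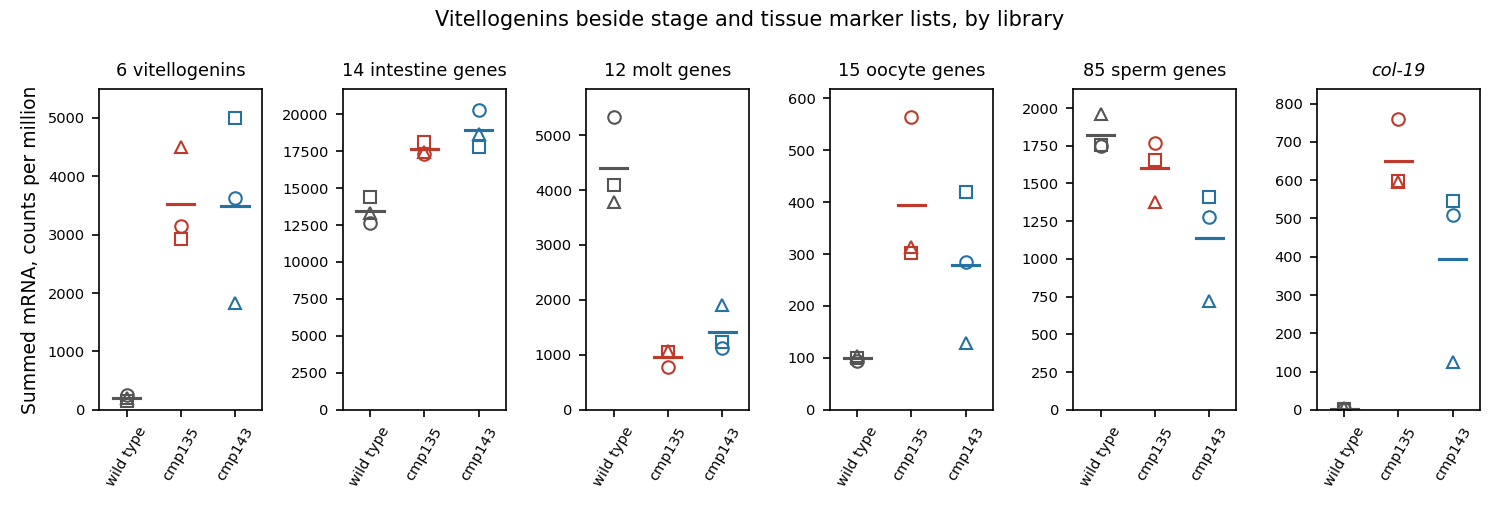
Summed mRNA, in CPM, of the 6 vitellogenins, of 4 marker lists and of col-19 in each of the 9 L4 mRNA libraries, with symbols for replicates 1 (circle), 2 (square) and 3 (triangle) and bars at group means. Vitellogenins, oocyte genes and col-19 were higher and molt genes lower in both csr-1a strains, and csr-1a(cmp143) replicate 3 lay nearest to wild-type for vitellogenins, molt genes, oocyte genes and col-19. col-19 is 1 gene of the adult cuticle list, whose sum is not drawn and was not higher in the csr-1a strains.

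Among 20 genes of the yolk pathway, 6 were higher and 7 lower in csr-1a(cmp135), and 5 higher and 5 lower in csr-1a(cmp143). Over all genes 18.0% were called higher and 14.8% lower in cmp135, and 15.5% higher and 10.8% lower in cmp143, and the list's median was -0.20 and 0.01, so nothing is read from the counts of the list. ceh-60, a homeodomain factor that drives vitellogenin transcription, had 14.9 to 17.4 CPM in wild-type and 35.1 to 45.6 CPM in the csr-1a strains, with log2 fold changes of 1.57 ± 0.11 and 1.44 ± 0.11. Its partner unc-62 did not pass the test (-0.13 ± 0.12 and 0.05 ± 0.12). The intestinal GATA factor elt-7 was higher by 1.42 ± 0.17 and 1.30 ± 0.17, and elt-2 by 0.48 ± 0.13 and 0.44 ± 0.13. rme-2, the yolk receptor of the oocyte, was higher by 1.64 ± 0.41 in cmp135, and its value of 1.19 ± 0.41 in cmp143 missed the threshold (adjusted p = 0.053). The kinase gene sgk-1 (0.52 ± 0.12 and 0.60 ± 0.12) and pqm-1, a zinc finger factor (0.83 ± 0.21 and 0.82 ± 0.21), were also higher.

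The 7 genes of the list called lower in csr-1a(cmp135) are of several kinds. nhr-23, a receptor that drives molting, fell by 2.14 ± 0.31 on the log2 scale in cmp135 and by 1.32 ± 0.30 in cmp143. lin-29, the factor of the larva-to-adult switch of the skin, fell by 1.15 ± 0.17 and by 0.85 ± 0.17. mab-3, which represses vitellogenins in males, was low throughout (3.17 to 7.68 CPM in wild-type) and fell by 1.66 ± 0.31 and by 1.29 ± 0.30. The endocytic receptor gene lrp-1 fell by 1.68 ± 0.23 and 0.94 ± 0.23 and daf-2, the insulin receptor, by 0.95 ± 0.17 and 0.50 ± 0.17. nhr-25 (-0.66 ± 0.17) and lin-41 (-0.70 ± 0.24) passed the test in cmp135 and missed it in cmp143 (-0.32 ± 0.17 and -0.44 ± 0.24), and neither was called between the alleles. dsc-4, which loads lipid on to yolk lipoprotein, daf-16, rict-1, rme-1, rme-8 and lin-14 did not pass the test in either strain, with values between -0.38 and 0.23.

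Across the 9 mRNA libraries, the profiles of vit-2 to vit-6 were alike, each with a Pearson correlation of 0.98 or 0.99 with the mean of the other 5 members, on log2(CPM + 0.5), whereas vit-1 reached 0.63. The libraries share strains, so these values describe the contrast between wild-type and csr-1a animals as much as anything else. The 6 non-member genes most like the family mean, of 14413 compared, were cnc-4 (0.994), ttr-14, ltah-1.1, hxk-1, elo-9 and Y77E11A.12 (0.987). Their changes were smaller than those of vit-2 to vit-6 and larger than that of vit-1: the largest was that of ttr-14, with 7.59 to 9.67 CPM in wild-type and 34.2 to 85.1 CPM in the csr-1a strains.

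Small RNAs that map to the vitellogenins were read next. Reads were counted on either strand, so antisense siRNAs and fragments of the abundant mRNA cannot be told apart, and levels are given as RPM, reads per 1000000 mapped reads. The sum over the 6 genes placed the groups in a wide order. It was highest in adult inputs, 2723 RPM ± 353 (SD, n = 2) in CSR-1A+B and 2121 ± 256 in CSR-1B, whose ranges did not overlap. The adult IPs followed, 1417 ± 954 in CSR-1A+B, with a range of 743 to 2091 that overlapped the CSR-1B inputs, and 372 ± 57.9 in CSR-1B. Every L4 group was lower than every adult group, from 159 ± 59.4 RPM in the wild-type anti-FLAG IP through 76.4 ± 34.2 in CSR-1B inputs, 49.2 ± 7.28 in CSR-1A+B inputs, 42.3 ± 1.61 in wild-type total small RNA, 31.3 ± 6.42 in wild-type anti-HA inputs, 29.2 ± 11.9 in CSR-1A inputs and 23.6 ± 12.6 in CSR-1A alg-3/4 inputs down to 12.4 ± 3.03 in WAGO-1 inputs and 3.38 ± 1.09 in the WAGO-1 IP. Inputs of CSR-1A[15xAG] stood at 100 ± 22.6 RPM and wild-type anti-FLAG inputs at 66.3 ± 31.4. From the anti-FLAG IP down to the CSR-1A+B input, each group's range overlapped that of the next. The same held from wild-type total small RNA down to the WAGO-1 input.

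**Figure D3:**
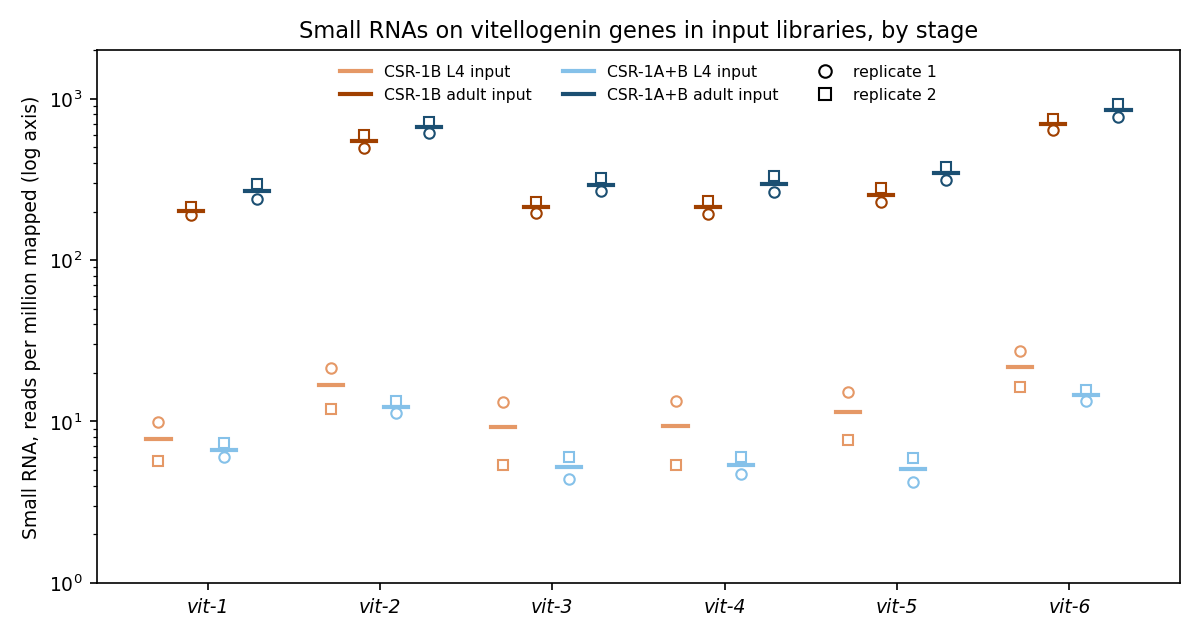
Small RNA, in RPM, on each vitellogenin gene in input libraries of L4 and adult CSR-1B and CSR-1A+B animals, on a log axis, with circles and squares for replicates 1 and 2 and bars at means. Adult inputs lie between 190 and 928 RPM and L4 inputs between 4.20 and 27.4 RPM for all 6 genes, with no overlap.

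Adult inputs held far more of these small RNAs than L4 inputs. In CSR-1B inputs vit-6 had 27.4 and 16.2 RPM at L4 and 639 and 750 RPM in adults. In CSR-1A+B inputs it had 13.5 and 15.6 RPM at L4 and 771 and 928 RPM in adults. vit-2 went from 21.5 and 11.9 RPM to 493 and 597 RPM in CSR-1B and from 11.2 and 13.3 RPM to 617 and 718 RPM in CSR-1A+B. vit-1, whose L4 mRNA differed least between strains, was no exception here: it went from 9.93 and 5.70 RPM to 190 and 215 RPM in CSR-1B, and from 5.98 and 7.38 RPM to 240 and 296 RPM in CSR-1A+B. vit-3, vit-4 and vit-5, largely one shared value, lay between 4.20 and 15.2 RPM at L4 and between 193 and 378 RPM in adults of both strains.

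In the fits, 6 of 6 members were higher in adult than in L4 inputs of CSR-1B, with log2 fold changes from 3.50 ± 0.23 for vit-5 to 4.07 ± 0.22 for vit-2, where 38.2% of all genes were called higher. In CSR-1A+B 6 of 6 were higher as well, from 4.66 ± 0.13 for vit-1 to 5.43 ± 0.14 for vit-5, against 41.8% of genes. The median of the members was 3.62 and 5.14, beside -0.05 and -0.06 over all genes. As plain ratios of mean RPM the rise was 22.3-fold to 32.6-fold in CSR-1B and 40.1-fold to 68.1-fold in CSR-1A+B. Per length and among all genes, the members took places 700 to 2379 in adult inputs and 5141 to 12982 in L4 inputs of these strains. The oocyte genes rose with them (15 of 15 in each strain). Of the molt genes tested, 8 of 10 were lower in adults, with median log2 fold changes of -1.86 in CSR-1B and -2.65 in CSR-1A+B. Of the sperm genes, 51 of 79 and 76 of 82 were lower, with medians of -0.71 and -1.72. Of 12 intestine genes tested, 3 were higher and 6 or 7 lower, with medians of -0.49 and -0.87, opposite in sign to those of the members. The share of all genes called lower is not given here, so these counts are read only beside the medians over all genes. Fewer animals or cells with such RNA and less of it per cell cannot be told apart in whole worms.

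The small RNA ratio of vit-2 to vit-1 in adult inputs was 2.43 to 2.78. Wild-type L4 mRNA gave 2.37 to 2.83, at another stage and in another strain. At L4, CSR-1B inputs gave 2.09 to 2.17 in small RNA. The L4 mRNA of csr-1a(cmp135), another strain with the same deletion, gave 57.0 to 63.5. No mRNA of the CSR-1B and CSR-1A+B strains was sequenced at either stage, so mRNA and small RNA ratios were not compared within a strain. At siRNA length, 34.2% to 35.3% of positions of vit-1 and vit-2 cannot tell the copies apart.

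The IPs show whether small RNA reads on the yolk genes made up more or less of the IP than of the input. The counts do not separate siRNAs from mRNA fragments, so a lower total cannot say whether siRNAs within it were bound. In adults the members were lower in the IPs. vit-6 had 115 and 153 RPM in the CSR-1B IP against 639 and 750 RPM in the inputs, and vit-2 had 90.7 and 109 RPM against 493 and 597 RPM. Each IP library was below each input library for all 6 genes. edgeR called 6 of 6 lower, where 46.6% of genes were called lower, with log2 fold changes from -2.64 ± 0.14 (vit-6) to -2.98 ± 0.13 (vit-4). In RPM the inputs held 5.18 to 6.57 times as much as the IPs. In the same IP 13 of 15 oocyte genes were higher, and 8 of 12 intestine genes and 61 of 78 sperm genes lower. The members' median was -2.91, that of the intestine genes -1.88, that of the oocyte genes 1.75 and that of all genes -0.38.

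In the CSR-1A+B adult IP the replicates disagreed in size. vit-6 had 266 and 735 RPM against 771 and 928 RPM in the inputs, vit-2 had 185 and 533 RPM against 617 and 718 RPM, and vit-1 had 73.8 and 188 RPM against 240 and 296 RPM. Both IP libraries were below both inputs, replicate 1 by far more than replicate 2. The 6 members were called lower, by 1.13 ± 0.38 (vit-6) to 1.55 ± 0.40 (vit-4) on the log2 scale, against 36.3% of genes, and DESeq2 called 0. Without IP replicate 2 the values were as low as -2.45, and without IP replicate 1 as high as -0.54.

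**Figure D4:**
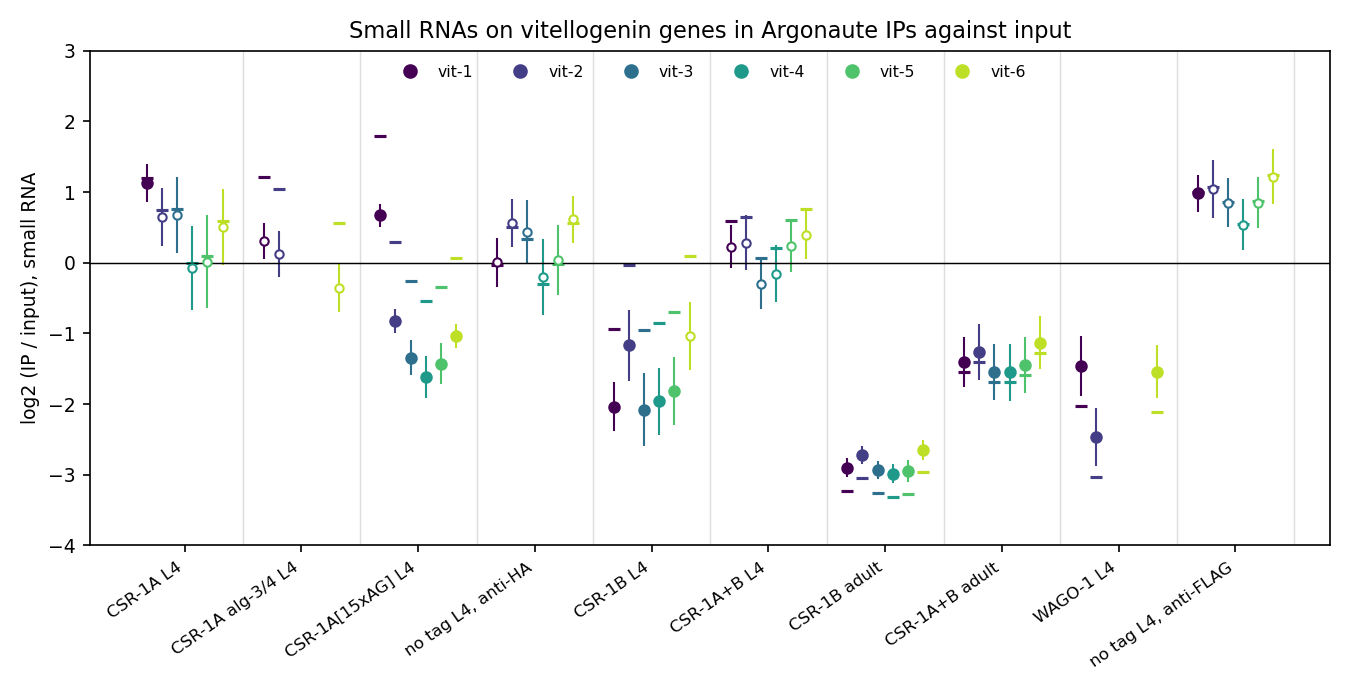
Fitted log2 ratio of IP to input small RNA for each vitellogenin gene and IP, with the standard error as a bar, filled circles for members called and open circles for those not called, and a dash for the fit with library size as the scaling. Members were lower in both adult IPs under either scaling. At L4 the dashes lie at higher values than the circles in CSR-1A[15xAG], CSR-1B, CSR-1A alg-3/4 and CSR-1A+B, and at lower values in WAGO-1. For vit-6 they cross 0 in CSR-1A[15xAG], CSR-1B and CSR-1A alg-3/4 (from -0.35 to 0.57 in the last). Other members cross 0 as well, among them vit-2 in CSR-1A[15xAG] (-0.82 to 0.29) and vit-3 in CSR-1A+B (-0.30 to 0.06).

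At L4 the picture was mixed and the counts were small. In the CSR-1A IP vit-1 had 11.7, 15.8 and 17.1 RPM against 4.80 and 4.58 RPM in the inputs, without overlap, a difference of 1.12 ± 0.27 (adjusted p = 0.018) where 20.8% of genes were called higher. vit-1 was called in the untagged anti-FLAG control as well and not in the anti-HA control, as given with the controls. It was the 1 member called in the CSR-1A IP, and the call was lost without input replicate 2, input replicate 3 or IP replicate 3 (adjusted p up to 0.15). The other 5 members lay between -0.07 and 0.68 and did not pass the test. vit-6 in this IP had 12.2, 24.2 and 36.7 RPM against 6.95 and 16.2 RPM, and the ranges overlapped.

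With the arginine-glycine motifs of CSR-1A altered, vit-1 stood out once more. In the CSR-1A[15xAG] IP it had 37.8, 44.4 and 32.9 RPM against 9.89, 9.69 and 10.2 RPM in the inputs, a fitted log2 fold change of 0.67 ± 0.16, with 37.1% of genes called higher. vit-6 had 70.5, 53.2 and 46.9 RPM against 60.9, 45.2 and 39.8 RPM, and vit-2 had 35.2, 28.3 and 26.8 RPM against 28, 19.9 and 18.7 RPM, so both overlapped. The fit placed these lower in the IP, vit-6 by 1.04 ± 0.18 and vit-2 by 0.82 ± 0.16, whereas with library size as the scaling the sign turned, to 0.069 for vit-6 and 0.29 for vit-2, neither called. vit-3, vit-4 and vit-5 were between -1.35 and -1.62 in the fit and between -0.26 and -0.54 with library size. Of the members 5 were thus called lower by the fit, against 36% of genes, and 0 with library size, while vit-1 was higher under both (1.80 with library size). The vit-2 to vit-1 ratio was 1.84 to 2.83 in these inputs and 0.64 to 0.93 in the IPs.

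Without ALG-3 and ALG-4, vit-1 had 21, 24.3 and 25.2 RPM in the CSR-1A IP against 4.26, 10.7 and 7.53 RPM in the inputs, and vit-6 had 12.8, 16.8 and 18.1 RPM against 3.41, 13.4 and 7.42 RPM. The vit-1 ranges did not overlap. Only vit-1, vit-2 and vit-6 had enough reads to be tested, with values of 0.30 ± 0.25, 0.13 ± 0.32 and -0.35 ± 0.34, and 0 of 3 were called, where 57.1% of genes were called in either direction. By DESeq2, and at an unadjusted p under 0.05, 0 were called too, but with library size as the scaling vit-1 and vit-2 were. vit-3, vit-4 and vit-5 held 1 to 8 reads in each of the 6 libraries of this strain.

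The CSR-1B IP at L4 rests on very unequal libraries. vit-6 had 90.9 and 18.8 RPM in IP replicates 1 and 2 and 27.4 and 16.2 RPM in the inputs, but replicate 1 held only 70 reads on the gene. vit-1 had 13 and 6.34 RPM against 9.93 and 5.70 RPM, from 10 reads in IP replicate 1. RPM was therefore higher in the IP on average. The fit, with TMM scaling, called 5 of 6 lower, against 54.2% of genes. Here vit-1 was lower by 2.04 ± 0.35, vit-2 by 1.17 ± 0.50, vit-3 by 2.08 ± 0.52, vit-4 by 1.96 ± 0.48 and vit-5 by 1.82 ± 0.48. For vit-6 edgeR gave -1.03 ± 0.48 (adjusted p = 0.056). The median of all genes was itself at -1.25 in this fit, so that vit-2 and vit-6 lay at or above it. With library size as the scaling vit-2 stood at -0.04 and vit-6 at 0.094. Without IP replicate 2 no member was called, without input replicate 1 there was 1, and with pairing of IP and input as a replicate block 6 were, vit-6 at -0.96. The oocyte genes stood otherwise in this fit, with 12 of 14 higher and a median of 1.88. Of 12 intestine genes 10 were lower, with a median of -2.91.

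For CSR-1A+B at the L4 stage, the IP held vit-6 at 23 and 53.4 RPM against 13.5 and 15.6 RPM in the inputs and vit-2 at 16.7 and 43.1 RPM against 11.2 and 13.3 RPM, each IP library above each input. The fitted differences were small, -0.30 ± 0.36 to 0.40 ± 0.35, and 0 of 6 members were called, where 78.2% of genes were called in either direction. At an unadjusted p under 0.05 and by DESeq2 the count was also 0. Leaving out IP replicate 1 gave 4 calls and leaving out IP replicate 2 gave 3.

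The WAGO-1 IP held almost no vitellogenin small RNA: 1.87 and 0.75 RPM for vit-6 against 4.78 and 3.29 RPM in the inputs, and 0.54 and 0.47 RPM for vit-2 against 3.68 and 2.66 RPM. All 3 members with enough reads to be tested were lower, vit-1 by 1.46 ± 0.42, vit-2 by 2.47 ± 0.41 and vit-6 by 1.54 ± 0.37, against 44.1% of genes. vit-3 had 0 reads in IP replicate 2.

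The untagged controls give the background of the procedure. In the anti-HA control 0 of 6 members were called, where 1.95% of genes were called in either direction, with values from -0.20 ± 0.54 (vit-4) to 0.62 ± 0.33 (vit-6), 0 at an unadjusted p under 0.05 and 0 by DESeq2. vit-1 had 5.31, 5.88 and 4.45 RPM in these IPs and 4.07 and 6.80 RPM in the inputs. In the anti-FLAG control, however, vitellogenins were recovered without any tag: vit-6 had 42.6, 98.4 and 106 RPM in the IPs against 13.9, 43.7 and 35.1 RPM in the inputs, and vit-1 had 12.3, 14.4 and 15.4 RPM against 3.68, 7.28 and 7.88 RPM. vit-1 did not overlap and was called, at 0.99 ± 0.26 (adjusted p = 0.030), where 8.14% of genes were called higher. The other members lay between 0.53 ± 0.36 and 1.22 ± 0.39 and were not called, but with pairing of IP and input as a replicate block 5 were, vit-6 at 1.28 (adjusted p = 2.9e-06) and vit-2 at 1.15. The vit-1 call was lost without input replicate 3, IP replicate 2 or IP replicate 3 (adjusted p up to 0.069), and without input replicate 2 there were 4. An enrichment of vit-1 near 1 on the log2 scale thus occurred in a control IP with another antibody than that of the CSR-1A IP. In the anti-HA control, which has the antibody of the CSR-1A IP, vit-1 stood at 0.004 ± 0.34. The difference between the CSR-1A IP and either control was not tested.

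Whether the ratio of IP to input in CSR-1B animals differed between stages was tested as an interaction of IP and stage. For 5 of 6 members this ratio was called lower in adults than at L4, where 5.36% of all genes were: vit-1 by 1.56 ± 0.49 on the log2 scale, vit-2 by 2.17 ± 0.57, vit-4 by 1.78 ± 0.57, vit-5 by 1.88 ± 0.57 and vit-6 by 2.17 ± 0.55. At L4 the mean RPM itself was higher in the IP than in the input, from 1.24-fold for vit-1 to 2.52-fold for vit-6. vit-3 gave -1.67 ± 0.61 and missed the threshold (adjusted p = 0.058), and passed it with the replicate block. The count rested on single libraries, since it was 0 without adult IP replicate 1, 2 without adult IP replicate 2, 2 without adult input replicate 2 and 3 without adult input replicate 1. In CSR-1A+B the same test gave -1.03 ± 0.64 to -1.46 ± 0.64 and called 0 of 6, where 28.9% of genes were called in either direction, with 3 at an unadjusted p under 0.05, 1 by DESeq2 and 6 with the replicate block. There 4 were called without L4 IP replicate 1 and 6 without adult IP replicate 2.

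Strains were then compared through their inputs. CSR-1B animals carry csr-1a(cmp135) and CSR-1A+B animals do not. The strains also have different tag alleles, and genotype and developmental stage at harvest cannot be told apart in these inputs. At L4 vit-5 was higher in CSR-1B, with 15.2 and 7.62 RPM against 4.20 and 5.96 RPM, by 1.33 ± 0.31 on the log2 scale (adjusted p = 0.034). It was the 1 member called, where 2.18% of genes were called higher. The other 5 were higher by 0.38 ± 0.24 (vit-1) to 1.01 ± 0.35 (vit-3) without a call. CSR-1B replicate 1 was above replicate 2 for every member. In the same L4 fit the median was -0.68 for molt, -0.50 for sperm, -0.36 for intestine and 0.15 for oocyte genes. That of all genes was -0.01. The count of members called went to 0 without CSR-1A+B input replicate 1 and to 6 without CSR-1B input replicate 2. In adults the order turned: all 6 genes had lower RPM in both CSR-1B inputs than in both CSR-1A+B inputs, by 0.31 ± 0.12 (vit-6) to 0.51 ± 0.13 (vit-4) on the log2 scale, and 0 of 6 were called, where 3.13% of genes were called in either direction, although 6 had an unadjusted p under 0.05 and DESeq2 called 2. It was 4 without CSR-1B adult input replicate 1, 6 without replicate 2 and 4 without CSR-1A+B adult input replicate 1.

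CSR-1A[15xAG] inputs held more vitellogenin small RNA than CSR-1A inputs at L4. Over the 6 genes they summed to 81.5 to 125 RPM, a range that overlapped the 30.5 to 89.2 RPM of untagged wild-type anti-FLAG inputs. It lay above the 26.7 to 35.8 RPM of wild-type anti-HA inputs and the 41.2 to 43.5 RPM of wild-type total small RNA. The CSR-1A[15xAG] inputs were not tested against wild-type inputs. vit-6 had 60.9, 45.2 and 39.8 RPM in CSR-1A[15xAG] inputs against 6.95 and 16.2 RPM in CSR-1A inputs, and vit-3 had 10.8, 7.49 and 5.72 RPM against 0.92 and 1.73 RPM. All 6 members were higher, without overlap of the libraries, and 6 of 6 were called, from 1.90 ± 0.19 for vit-1 to 3.38 ± 0.31 for vit-3, where 26.6% of genes were called higher. Library size as the scaling gave less, 0.64 (vit-1) to 2.15 (vit-3), with vit-1 not called (adjusted p = 0.052). Ribosomal RNA took 41.2% to 61.6% of counts in CSR-1A[15xAG] inputs and 7.73% to 18.7% in CSR-1A inputs, and its part in the result was not tested. Small RNAs of 13 of 13 intestine genes, 11 of 11 molt genes and 5 of 5 adult cuticle genes were higher in the same comparison. Those of 10 of 15 oocyte genes were lower, with a median of -0.89 beside -0.05 over all genes.

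In CSR-1A alg-3/4 inputs, vit-4 had 0.11, 0.21 and 0.44 RPM, from 1, 2 and 4 reads, against 1.43 and 1.58 RPM in CSR-1A inputs, and was lower by 2.24 ± 0.53 on the log2 scale (adjusted p = 0.017), the 1 member called of 4 tested, where 18.2% of genes were called lower. The call was lost without either CSR-1A input. vit-1 gave 0.98 ± 0.32 (adjusted p = 0.054), and vit-2 and vit-6 gave -0.02 ± 0.47 and -0.25 ± 0.51. vit-3 and vit-5 had too few reads to be tested, 1 to 5 per library in this strain.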

How the data were processed

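Values were taken from per-library tables of 59 libraries and grouped by their labels. For mRNA, the authors trimmed reads (Trimmomatic 0.36), aligned them with HISAT2 2.1.0 and deposited counts per gene from featureCounts, without strand and without reads that map to several places. For small RNA, the authors aligned reads with Bowtie2 2.2.2 and deposited expected counts from featureCounts, unstranded, with fractions for reads that overlap several genes. File headers name featureCounts 1.5.1, 1.6.5 and 2.0.0, and each comparison lies within 1 version. One anti-HA input library was not used here, since its table was read only in part.

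Symbols were found for 28127 of 31106 gene IDs. Expected counts were rounded. Differences were fitted across all genes with edgeR 4.0.16 (quasi-likelihood test, TMM scaling, filterByExpr, Benjamini-Hochberg adjustment, R 4.3.3), and a gene was called at an adjusted p of at most 0.05. RPM used the mapped reads of the study's library statistics. The 9 mRNA libraries were fitted together, each IP with its own input. Alternatives were DESeq2 1.42.0, RLE size factors, library size as the scaling, no filter, a replicate block and each library left out. The fits recovered most seeded changes in data simulated for csr-1a(cmp135) mRNA and for the anti-FLAG control, in well-counted genes and with a fixed spread. The other comparisons and genes with few reads were not tried in this way. The genes named are the 6 members, a yolk pathway list, the 2 most abundant genes of each other list and the 6 genes most correlated with the members. Members and lists were chosen with earlier results of these data known. Input and IP of 1 number share a lysate, so numbers pair them, and same-numbered deviations correlated at -0.08 to 0.47. The highest were in the anti-HA control (0.29 to 0.47), the anti-FLAG control (0.14 to 0.33) and CSR-1A alg-3/4 (0.13 to 0.34). The main fits of IP against input did not use this pairing, which entered only through the replicate block. The inputs of CSR-1A carry other numbers in the file headers than in the labels. Between strains numbers pair nothing (-0.21 to 0.17 for mRNA). No 2 replicates agreed within sampling noise (chi-square per degree of freedom 1.58 to 118).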

Additional observations from a re-analysis of the deposited data

Results flagged for a closer look

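In the CSR-1B strain the ratio of IP to input for vitellogenin small RNAs was lower in adults than in L4 animals in a direct test, by edgeR's interaction of IP and stage: -1.56 for vit-1, -2.17 for vit-2, -1.78 for vit-4, -1.88 for vit-5 and -2.17 for vit-6 on the log2 scale. At L4 the mean RPM itself was higher in the IP than in the input, from 1.24-fold for vit-1 to 2.52-fold for vit-6. The L4 side includes an IP library of 570862 counts, with 10 to 70 reads on each member. The direction was the same in all 6 members and in each fit that left out 1 library, with values from -0.95 to -2.78, and the count of members called ranged from 0 to 6 over those fits. The members share libraries and scaling, and vit-3, vit-4 and vit-5 are largely one shared value, so they are not separate replicates. Without the shallow library 5 members were called, and without adult IP replicate 1 the count was 0.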

How the results depend on the processing

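Of 684 alternative values for the 64 member values called, 619 kept direction and call, 61 kept the direction and lost the call and 4 turned sign; of 586 for the 54 not called, 109 were called and 60 turned sign. The 5 mRNA calls in cmp135 and all 12 calls of adult against L4 inputs held under every setting run. Counts of members called that moved by over 1.5 times were as follows. With library size as the scaling the count was 2 for the CSR-1A alg-3/4 IP, 1 for the CSR-1A[15xAG] IP, 4 for the anti-FLAG control, 5 for CSR-1A+B enrichment by stage and 5 for CSR-1B against CSR-1A+B L4 inputs. With no filter it was 1 for the CSR-1B L4 IP, 1 for the CSR-1A+B L4 IP, 5 for the WAGO-1 IP, 3 for the anti-FLAG control, 6 for CSR-1A+B enrichment, 5 for L4 inputs and 6 for adult inputs between those strains, and 3 for alg-3/4 inputs. DESeq2 gave 1 for the CSR-1B L4 IP, 0 for the CSR-1A+B adult IP, 1 for CSR-1A+B enrichment, 2 for adult inputs between strains and 0 for alg-3/4 inputs, and RLE size factors gave 2 for CSR-1A+B enrichment. With the replicate block it was 5 for the anti-FLAG control, 6 for CSR-1A+B enrichment, 4 for L4 inputs and 6 for adult inputs between strains, and 2 for alg-3/4 inputs; strains share only a number. Smaller moves, such as 5 to 4 in the CSR-1B L4 IP and 5 to 6 in CSR-1B enrichment with library size, are not listed. Leaving out 1 library in turn gave 0 to 1 for the CSR-1A IP, 0 to 6 for the CSR-1B L4 IP, 0 to 4 for the CSR-1A+B L4 IP, 0 to 4 for the anti-FLAG control, 2 to 4 for the WAGO-1 IP, 0 to 6 for enrichment in both strains and for inputs between strains at both stages, 0 to 2 for alg-3/4 inputs and 5 to 6 for cmp143. The 4 called values that turned sign were vit-2 (0.29) and vit-6 (0.069) in the CSR-1A[15xAG] IP with library size and, in the CSR-1B L4 IP, vit-2 with no filter (0.18) and without IP replicate 2 (0.15, from -1.23 when 1 library was left out). Of the 60 values not called that turned sign, those of vit-6 in that IP were 0.31 with no filter, 0.094 with library size and 0.17 without IP replicate 2 (from -1.10). The cause was not tested. With another denominator for RPM, 211 of 270 levels moved by at least 1 SD. Depth limits vit-3 to vit-5 at L4, with at most 8 reads per library in the alg-3/4 strain.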
